A study of Mus musculus with 6 samples.

Results

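The genes described here are 40 genes of the DNA damage checkpoint, the BRCA complexes and the Fanconi anaemia pathway, chosen by symbol for what their proteins are known to do; earlier results of these data were known when the genes, and the marker lists used beside them, were chosen. Of these, 38 were matched among the 57170 gene identifiers of the count table; Rbbp8, an end resection cofactor, and Fancc, a Fanconi core subunit, were not analysed here. All 38 held at least 10 counts in 2 or more libraries, with 60 counts the lowest and 4014 the highest value of a member in any library, and all were among the 17707 genes tested. RNA was polyadenylated RNA of whole mouse testes at postnatal day 5, from 2 libraries labelled wild type (WT) and 4 labelled sKO, in which Mdm2 is conditionally knocked out in pre-meiotic germ cells. Mdm2 encodes the ubiquitin ligase that holds p53 in check. The Cre driver and strain background were not given in the sources used here, both groups were of the same age, and nothing in the labels says that the libraries came from separate animals, so p-values measure only the spread between these libraries. The series' design text speaks of 3 replicates for each group, whereas the labels give 2 and 4, and the labels were used.

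As background, broken DNA ends are sensed by the MRE11-RAD50-NBS1 complex, which activates the kinase ATM. Single-stranded DNA at stalled forks and resected ends activates ATR. Both kinases act through CHEK1 and CHEK2 and through p53, the substrate of MDM2. In homologous recombination the ends are resected, BRCA1 and BRCA2 with their partners prepare them for strand exchange, and the genes grouped here under strand exchange assist that step. The Fanconi core complex puts ubiquitin on FANCD2 and FANCI at DNA crosslinks. Most of these genes are used by any dividing cell in S phase, and germ cells use many of them again in meiosis. Their RNA in a whole testis can therefore come from germ and somatic cells, and the cell of origin was not measured here.

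Library totals were 17.99 to 18.39 M (mega) expected counts, and levels are given as CPM (counts per mega counts of a library's total after TMM scaling). The targeted gene, Mdm2, stood at 67.2 and 76.0 CPM in the WT libraries and at 37.6, 47.3, 41.8 and 45.1 CPM in sKO-1 to sKO-4 (log2 fold change -0.74, SE 0.12, edgeR quasi-likelihood adjusted p = 0.0241). All 25 germ cell markers were lower (edgeR adjusted p under 0.05 over all genes), by a median log2 fold change of -2.33. Their summed level was 1236 and 857 CPM in WT and 152 to 257 CPM in sKO; Dazl, a germ cell RNA-binding protein, had a log2 fold change of -2.34 (adjusted p = 0.00929) and Ddx4, the germ cell RNA helicase, one of -2.31 (adjusted p = 0.0136). Without WT-1, edgeR called 1 gene lower and 1 higher in all, and the calls of Mdm2, Dazl and Ddx4 ended (adjusted p = 0.168, 0.116 and 0.167). Those of Dazl and Ddx4 stood on leaving out any other single library, and that of Mdm2 stood on leaving out sKO-1 but no other. Markers of Sertoli, Leydig, peritubular and stromal, endothelial, and macrophage and blood cells were present in every library, and none of their genes was at 0. Of 20 Sertoli cell markers 1 was higher, Amh (log2 fold change 0.45, adjusted p = 0.0429), while 4 were higher and 4 lower at an unadjusted p under 0.05, and DESeq2 called 1 in each direction. Their median log2 fold change was 0.13, and their summed level was 7686 and 9024 CPM in WT and 8850 to 9858 CPM in sKO. Of 12 peritubular and stromal markers 1 was lower, Cnn1 (log2 fold change -1.73, adjusted p = 0.0323), while 3 were lower and 2 higher at an unadjusted p under 0.05; the median was 0.08, and the summed level was 6354 and 8230 CPM in WT and 7127 to 9373 CPM in sKO. The calls of Amh and Cnn1 ended on leaving out any single library. Of the 10 Leydig, 10 endothelial and 12 macrophage and blood markers edgeR and limma-voom called none, DESeq2 called 1, and an unadjusted p under 0.05 was reached by 0, 1 and 3. In such bulk RNA, fewer cells of a type and less RNA per cell cannot be told apart. The libraries also fell into 2 subsets that the labels do not name, WT-1 with sKO-1 and 2, and WT-2 with sKO-3 and 4. The sKO pairs differed little within and much between subsets, so values within each subset are given where they matter.

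Among the DNA damage and recombination genes, 2 passed the test and both were lower in sKO: Fancd2, the ubiquitinated switch protein of the Fanconi pathway, and Clspn, the adaptor that carries the signal from ATR to CHEK1. Over all genes tested, 2.30% were called lower and 0.124% higher, 2.43% in all. No member was called higher by edgeR at the adjusted threshold, none had an unadjusted p under 0.05 in that direction, and DESeq2 and limma-voom called none. At an unadjusted p under 0.05, 11 members were lower, where the share over all genes was 8.91% (4.17% were higher at that level). The log2 fold change was below 0 for 30 members and above 0 for 8, where 44.7% of all genes were below 0. Their median was -0.20, beside 0.03 over all genes. In 10 members every sKO library lay below both WT libraries, where 13.3% of all genes did, and in 1, Rad51b, every sKO library lay above both, where 9.79% of all genes did. In the other 27 the groups overlapped.

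**Figure D1:**
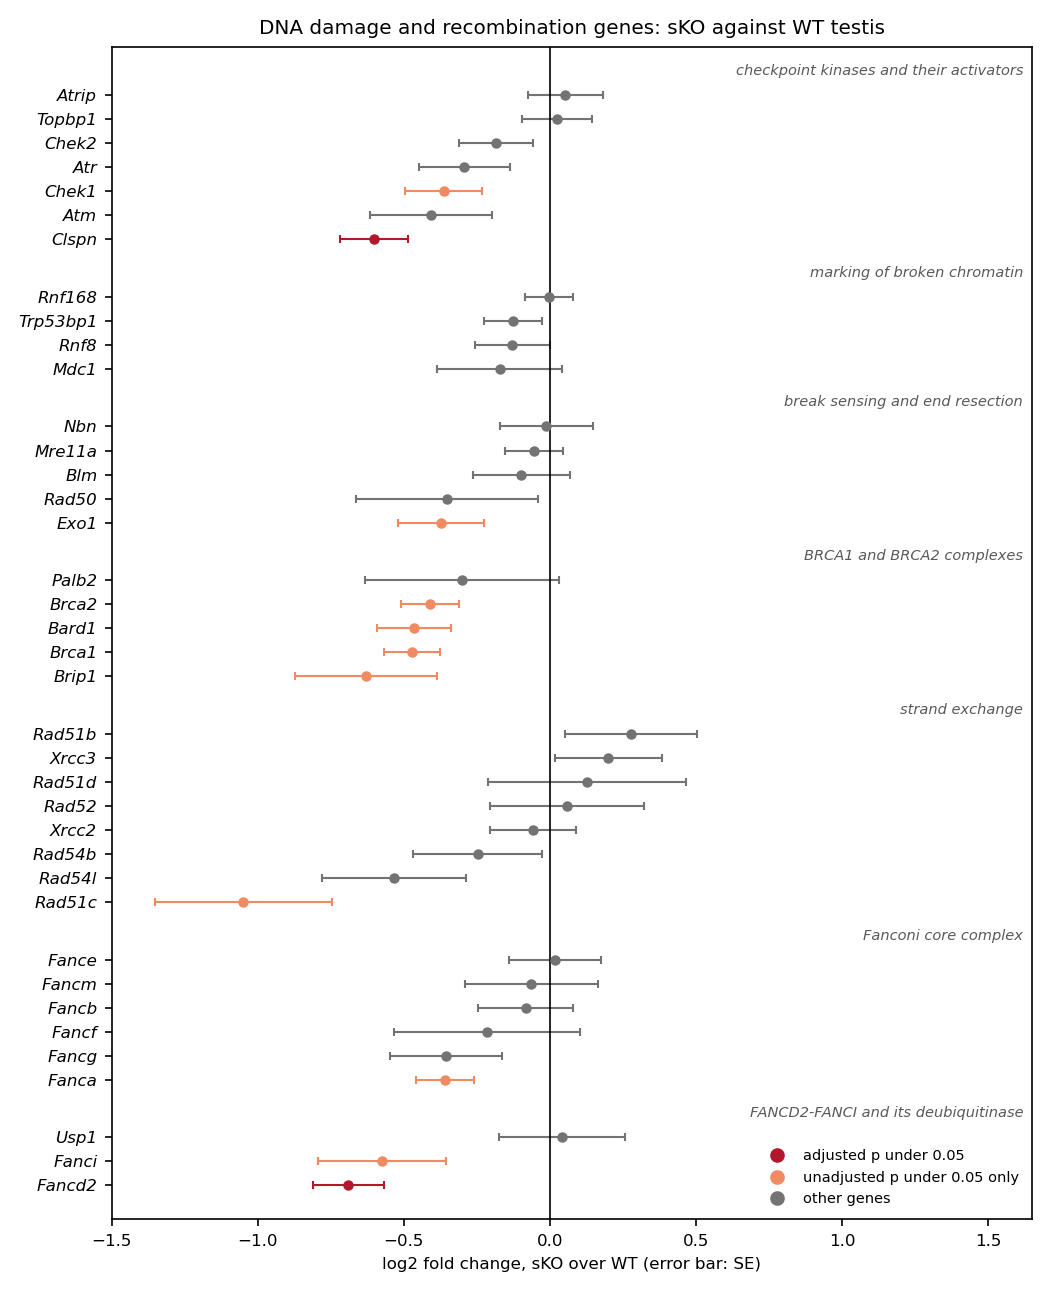
Log2 fold change (sKO minus WT, horizontal axis) of the 38 analysed genes, with bars of 1 SE from edgeR, grouped by role along the vertical axis. Fancd2 and Clspn are the 2 genes past the adjusted threshold, and the largest negative value is that of Rad51c (-1.05).

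The members' summed level was 1795 and 1652 CPM in WT-1 and WT-2 and 1480, 1569, 1484 and 1514 CPM in sKO-1 to sKO-4. The groups did not overlap, and the means were 1724 ± 101 CPM (SD, n = 2) and 1512 ± 41.1 CPM (SD, n = 4). The summed germ cell markers went the same way, from a mean of 1046 ± 268 CPM to one of 207 ± 52.8 CPM. The 28 proliferation markers did too, from 3476 ± 122 CPM to 2960 ± 180 CPM, with a median log2 fold change of -0.21, close to that of the DNA damage genes. The part of germ cell content or of cell division in the members' levels was not tested.

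**Figure D2:**
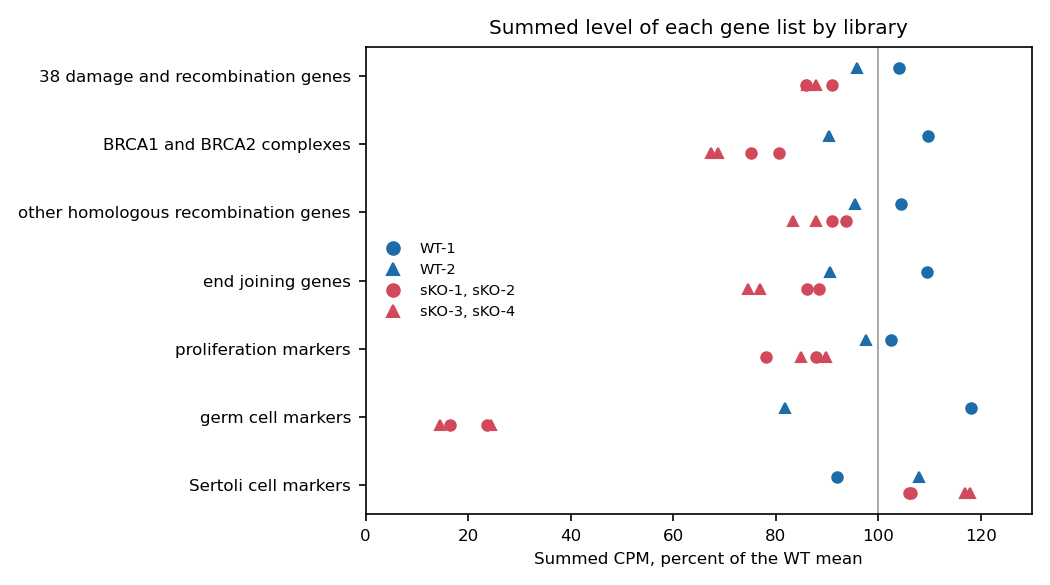
Summed CPM of gene lists in each library, as a percent of the WT mean (horizontal axis), with WT in blue, sKO in red, circles for the subset of WT-1 and triangles for that of WT-2. The sKO libraries lie below both WT libraries for the 38 damage and recombination genes (1480 to 1569 against 1652 and 1795 CPM) and, much further, for the germ cell markers (152 to 257 against 857 and 1236 CPM). They also do for the BRCA1 and BRCA2 complexes and other homologous recombination genes (1094 to 1229 against 1252 and 1371 CPM). The same holds for end joining genes (502 to 597 against 610 and 738 CPM) and proliferation markers (2712 to 3125 against 3390 and 3562 CPM). For the Sertoli cell markers the groups overlap.

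The promoters of these genes share letters that the choice of members did not use. E2F factors switch on genes for S phase, and a match here is any of the 7-letter strings TTCCCGC or TTCGCGC or TTGCCGC or TTGGCGC, on either strand, from 250 bases before to 50 after a RefSeq start (GRCm38.p6); these strings can overlap each other. Of the 30 members with a promoter in that table, 20 (66.7%) held a match, compared with 18.6% of the 11949 tested genes with a promoter there, which include the members, and 10.9% of all 27025 genes in the table. Mean GC content was alike, at 58.8% for the members and 59.9% for the tested genes. The share was 47.8% among the proliferation markers (11 of 23) and 47.4% among the germ cell markers (9 of 19). In the lists of further pathway members described below, the share varied. For other checkpoint genes it was 4 of 21, close to that of the tested genes, and for other homologous recombination genes 9 of 26. For end joining genes the share was 5 of 14 and for other Fanconi genes 8 of 16. Among the members with an unadjusted p under 0.05 it was 8 of 9, with Fanca the one without, and among the other members 12 of 21. The cell cycle element CHR (TTTGAA) was in 3 of 30 members, against 14.7% of tested genes. The CCAAT box (CCAAT) was in 19 of 30 (63.3%), against 42.8%. It was in 4 of the 9 members with an unadjusted p under 0.05 and in 15 of the other 21. Differences between these shares were not tested, and binding of E2F factors was not measured. Fancd2 and Exo1 had no promoter in the table.

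The stretches below show these matches in the genes with an unadjusted p under 0.05 (all with negative log2 fold changes), and in Topbp1 and Rnf168, whose groups overlapped. Brip1 and Fanci, among the former, also had overlapping groups. Other members with overlapping groups held matches that are not printed, among them Mdc1 and Blm (log2 fold changes -0.17 and -0.10). Each is written 5′ to 3′ on the strand of the gene, with GRCm38.p6 coordinates, and the capitals mark the match. The Chek1 stretch is shorter because the window ends there, and Rad51c has 3 matches over 2 annotated starts. Topbp1 has a second match, GCGCGAA on the strand shown, which overlaps the capitals and runs on into the lower case letters.
Clspn (chr4:126556991-126557017, plus strand): ccgcgtctggGCGCGAAagctcgaact
Chek1 (chr9:36726609-36726625, minus strand): gcaggttttgGCGGGAA
Brca1 (chr11:101551918-101551944, minus strand): ctagcgctagGCGCCAAgcggccggtt
Bard1 (chr1:71103164-71103190, minus strand): gccgctcagtTTCCCGCtcaggaagtt
Brca2 (chr5:150522443-150522469, plus strand): ttaggccacaGCGGGAAacagacacac
Brip1 (chr11:86201181-86201207, minus strand): ggggcgggagGCGCGAAttcatctgtg
Rad51c (chr11:87404478-87404504, minus strand): ttccagcgctTTCGCGCctcttgctct
Rad51c (chr11:87405006-87405032, minus strand): gcgcgcgtggGCGCCAAccactcccta
Rad51c (chr11:87404943-87404969, minus strand): ccccgcgaggGCGGGAAaagcaagggg
Fanci (chr7:79392346-79392372, plus strand): gtggagtagaGCGGGAAttttggaagg
Topbp1 (chr9:103305185-103305211, plus strand): gtccgctcggTTGGCGCgaaagtcggt
Rnf168 (chr16:32277415-32277441, plus strand): agcaggctagGCGGGAAcgcagacgca
The same letters therefore stood before or after the starts of genes with all sKO libraries below both WT libraries and of genes whose groups overlapped.

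Of the 7 checkpoint kinases and activators, 1 was called lower and none higher, and their log2 fold changes had a median of -0.29. Clspn (ENSMUSG00000042489) had 70.3 and 62.1 CPM in WT-1 and WT-2, and 38.2, 48.9, 43.4 and 43.8 CPM in sKO-1 to sKO-4. Every sKO library lay below both WT libraries, and the means were 66.2 ± 5.73 CPM (SD, n = 2) and 43.6 ± 4.39 CPM (SD, n = 4) (log2 fold change -0.60, SE 0.12, edgeR adjusted p = 0.0438). Within the first and second subset the log2 fold change was -0.72 and -0.52. The call did not survive leaving out any single library, with adjusted p between 0.0707 (without sKO-2) and 0.369 (without WT-1).

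Chek1, the kinase that Clspn serves, had 44.2 and 35.7 CPM in WT and 28.7, 33.7, 28.7 and 32.9 CPM in sKO. Its sKO libraries were all below both WT libraries (log2 fold change -0.36, SE 0.13, edgeR adjusted p = 0.279, unadjusted p = 0.0261). Topbp1, the activator of ATR, with the highest mean CPM of this group (not scaled by gene length), had 183.0 and 204.5 CPM in WT and 175.9, 180.0, 215.3 and 217.3 CPM in sKO. Its log2 fold change was 0.03 (SE 0.12, edgeR adjusted p = 0.967), and its libraries separated by subset rather than by genotype. The kinases Atm and Atr had 78.0 and 51.8, and 90.6 and 77.3 CPM in WT. In sKO-1 to sKO-4 Atm had 51.9, 60.7, 39.7 and 43.4 CPM and Atr 80.6, 75.4, 61.0 and 56.9 CPM. Their groups overlapped over all libraries (log2 fold changes -0.41 and -0.29, edgeR adjusted p = 0.489 and 0.508), while within each subset every sKO library lay below its WT library. Atrip, the partner of ATR, and Chek2, the effector kinase of ATM, had log2 fold changes of 0.05 and -0.19 (edgeR adjusted p = 0.930 and 0.640).

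Of the 4 genes that mark broken chromatin, edgeR, DESeq2 and limma-voom called none, and none had an unadjusted p under 0.05. Trp53bp1, which binds modified nucleosomes and shields ends from resection, had 121.6 and 102.3 CPM in WT and 108.6, 106.1, 97.0 and 98.6 CPM in sKO (log2 fold change -0.13, SE 0.10, edgeR adjusted p = 0.699). Rnf168, the ubiquitin ligase upstream of it, was even across the libraries, at 54.9 and 54.7 CPM in WT and 52.6 to 56.8 CPM in sKO (log2 fold change -0.00, SE 0.08). Mdc1, the scaffold on phosphorylated H2AX, and Rnf8, the ubiquitin ligase it recruits, had log2 fold changes of -0.17 and -0.13, and their groups overlapped.

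Among the 5 genes analysed for break sensing and resection, again none was called by edgeR, DESeq2 or limma-voom, and 1 had an unadjusted p under 0.05. That was Exo1, a resection exonuclease, with 44.6 and 42.6 CPM in WT and 26.7, 34.8, 35.7 and 37.5 CPM in sKO. All 4 sKO libraries were below both WT libraries (log2 fold change -0.37, SE 0.15, edgeR adjusted p = 0.322, unadjusted p = 0.035). Rad50, the ATPase of the sensor complex, had 71.6 and 39.7 CPM in WT and 57.4, 52.6, 32.6 and 31.6 CPM in sKO, so that the subsets differed more than the genotypes (log2 fold change -0.35, edgeR adjusted p = 0.739). Its partners Mre11a and Nbn had log2 fold changes of -0.06 and -0.01. Blm, the helicase that acts in resection and in dissolving joint molecules and with the highest mean CPM of this group, had 48.2 and 65.6 CPM in WT and 46.5 to 60.3 CPM in sKO (log2 fold change -0.10, SE 0.17, edgeR adjusted p = 0.885).

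The 5 genes of the BRCA1 and BRCA2 complexes had log2 fold changes with a median of -0.47, and their summed level was 219.1 and 180.5 CPM in WT and 134.8 to 161.3 CPM in sKO. None passed edgeR's adjusted threshold, DESeq2 called 1 (Brca1, adjusted p = 0.00972) and limma-voom none. At an unadjusted p under 0.05 in edgeR, 4 were lower, where the share over all genes was 8.91%. Brca1, the ubiquitin ligase and recombination mediator, had 61.9 and 56.2 CPM in WT and 44.9, 44.2, 40.6 and 40.7 CPM in sKO. Its sKO libraries were closely spaced below both WT libraries (log2 fold change -0.47, SE 0.10, edgeR adjusted p = 0.0519).

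Bard1, the obligate partner of BRCA1, had 37.8 and 32.5 CPM in WT and 23.1, 27.6, 24.1 and 26.9 CPM in sKO (log2 fold change -0.47, SE 0.13, edgeR adjusted p = 0.138). Brca2, a mediator of strand exchange, had 70.7 and 62.0 CPM in WT and 51.5, 52.4, 49.6 and 46.1 CPM in sKO (log2 fold change -0.41, SE 0.10, edgeR adjusted p = 0.091). For both genes, as for Brca1, no sKO library reached a WT library. Brip1, a helicase bound to BRCA1, had 27.8 and 18.0 CPM in WT and 14.7, 19.6, 12.5 and 12.4 CPM in sKO. Its groups overlapped through sKO-2 (log2 fold change -0.63, SE 0.24, edgeR adjusted p = 0.315). Palb2, the bridge between BRCA1 and BRCA2, had 20.8 and 11.8 CPM in WT and 8.78 to 17.5 CPM in sKO (log2 fold change -0.30, edgeR adjusted p = 0.808). All 5 genes were below 0 within both subsets, where 32.5% of all genes and 27 of the 38 members were.

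**Figure D3:**
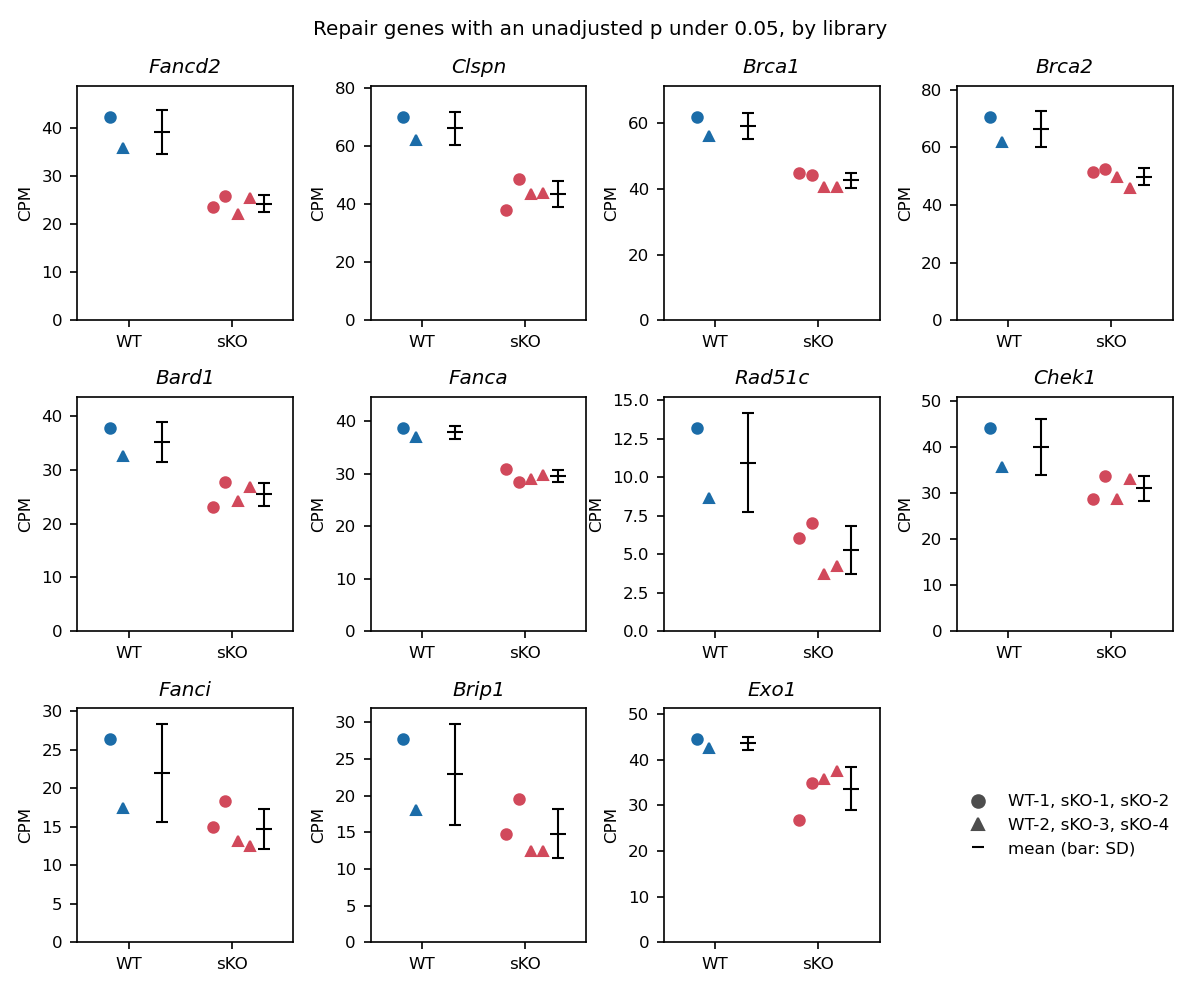
CPM (vertical axis, from 0) in each of the 6 libraries for the 11 members with an unadjusted p under 0.05; circles are the subset of WT-1, triangles that of WT-2, and the marks beside them are the group mean with a bar of 1 SD. The groups do not overlap in 9 of the panels, and in Fanci and Brip1 sKO-2 lies above WT-2. The panels were chosen by p-values from these same libraries, which favours separated groups, so this count is no separate support. Over all genes tested, the groups do not overlap in 23.0%.

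The 8 strand exchange genes did not go one way: their median log2 fold change was -0.00, and edgeR and limma-voom called none, while DESeq2 called Rad51c (adjusted p = 0.0404), the 1 gene with an unadjusted p under 0.05 in edgeR. Rad51c, which acts in complexes with other genes of this group, had 13.2 and 8.68 CPM in WT and 6.09, 7.07, 3.75 and 4.22 CPM in sKO. Every sKO library lay below both WT libraries, and its log2 fold change (-1.05, SE 0.30, edgeR adjusted p = 0.161, unadjusted p = 0.00906) was the largest in size among the members. Within the first and second subset the log2 fold change was -1.04 and -1.13. The annotated neighbour of Rad51c on the opposite strand, with no shared exon, is Tex14, a germ cell bridge gene. It was picked for Rad51c alone, such neighbours of other members are not given, and a link between these genes was not tested. Tex14 had 42.3 and 30.5 CPM in WT and 4.50 to 11.4 CPM in sKO (log2 fold change -2.14, edgeR adjusted p = 0.0248). That call stood without sKO-2 or sKO-4 and ended without any other single library (adjusted p up to 0.263, without WT-1).

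The other strand exchange genes were called by none of the 3 tools. Rad51b, at 3.12 and 3.38 CPM in WT and 3.55 to 4.45 CPM in sKO, was above both WT libraries in all 4 sKO libraries (log2 fold change 0.28, SE 0.23, edgeR adjusted p = 0.711). Rad51d, Xrcc2 and Xrcc3 had log2 fold changes of 0.13, -0.06 and 0.20, with overlapping groups. Rad54l, a DNA translocase that acts in strand exchange, with the highest mean CPM of this group, had 39.5 and 25.4 CPM in WT and 22.3, 29.6, 17.0 and 20.6 CPM in sKO (log2 fold change -0.54, SE 0.25, edgeR adjusted p = 0.426). Its relative Rad54b had a log2 fold change of -0.25 and Rad52, an annealing protein, one of 0.06.

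Of the 6 Fanconi core genes analysed, edgeR, DESeq2 and limma-voom called none and 1 had an unadjusted p under 0.05. Fanca, a core subunit with the highest mean CPM of these, had 38.8 and 37.0 CPM in WT and 31.0, 28.4, 28.9 and 29.8 CPM in sKO. The spread within each group was small and the groups did not overlap (log2 fold change -0.36, SE 0.10, edgeR adjusted p = 0.142, unadjusted p = 0.00722). In the gene models the exons of Fanca overlap those of Zfp276. Other members have such overlaps too, among them Fanci with Polg. On the same strand, Rnf8 overlaps Gm28043, Rad54b overlaps Fsbp and Atrip overlaps Trex1. The use of strand by the counting was not given in the sources used here. The subunits Fancb, Fance, Fancf and Fancg and the fork remodeller Fancm had log2 fold changes between -0.36 and 0.02 and edgeR adjusted p of 0.511 or more.

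Downstream of the core, Fancd2 (ENSMUSG00000034023) had 42.5 and 35.9 CPM in WT and 23.6, 26.0, 22.1 and 25.5 CPM in sKO. The 4 sKO libraries were close to each other and all below both WT libraries, with means of 39.2 ± 4.62 CPM (SD, n = 2) and 24.3 ± 1.77 CPM (SD, n = 4) (log2 fold change -0.69, SE 0.12, edgeR adjusted p = 0.0354). Within the first and second subset the log2 fold change was -0.81 and -0.60. As for Clspn, leaving out any single library ended the call, with adjusted p between 0.0573 (without WT-2) and 0.337 (without WT-1).

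Fanci, the partner of FANCD2, had 26.5 and 17.5 CPM in WT and 15.0, 18.4, 13.1 and 12.5 CPM in sKO. Only sKO-2 reached the lower WT library (log2 fold change -0.58, SE 0.22, edgeR adjusted p = 0.312, unadjusted p = 0.0322). Usp1, which removes ubiquitin from both proteins, had 160.0 and 212.3 CPM in WT and 142.4, 168.3, 222.9 and 231.9 CPM in sKO. It followed the subsets and not the genotypes (log2 fold change 0.04, SE 0.22, edgeR adjusted p = 0.969).

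Per kilobase of exon, the members' WT levels had a median of 7.29 CPM per kb. Usp1 (49.9 CPM per kb) and Topbp1 (36.1 CPM per kb) stood above the rest, and their ranges over the 2 WT libraries did not touch (42.9 to 56.9 and 34.1 to 38.1 CPM per kb). Clspn was at 13.1 CPM per kb, Brca1 at 8.91, Fancd2 at 7.07 and Brca2 at 6.19 CPM per kb. Rad51c (2.55 CPM per kb) and Rad51b (0.92 CPM per kb) were the lowest 2.

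The library subsets moved many of these levels. With a term for the subset in the edgeR model, 13 members were called lower in sKO and none higher, where 8.65% of all genes were called lower and 4.97% higher. The 13 were Atm, Atr, Clspn, Rad50, Brca1, Bard1, Brca2, Brip1, Rad51c, Rad54l, Fanca, Fancd2 and Fanci, with adjusted p from 0.00162 (Brca1) to 0.031 (Rad54l). In the same model 16 members were lower and 5 higher in the second subset than in the first, where 17.5% and 16.4% of all genes were. Rad50 had the smallest adjusted p of these (log2 difference -0.80, adjusted p = 0.000118). Because the subsets were found in these libraries and no label names them, this model is an alternative and not the main test.

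**Figure D4:**
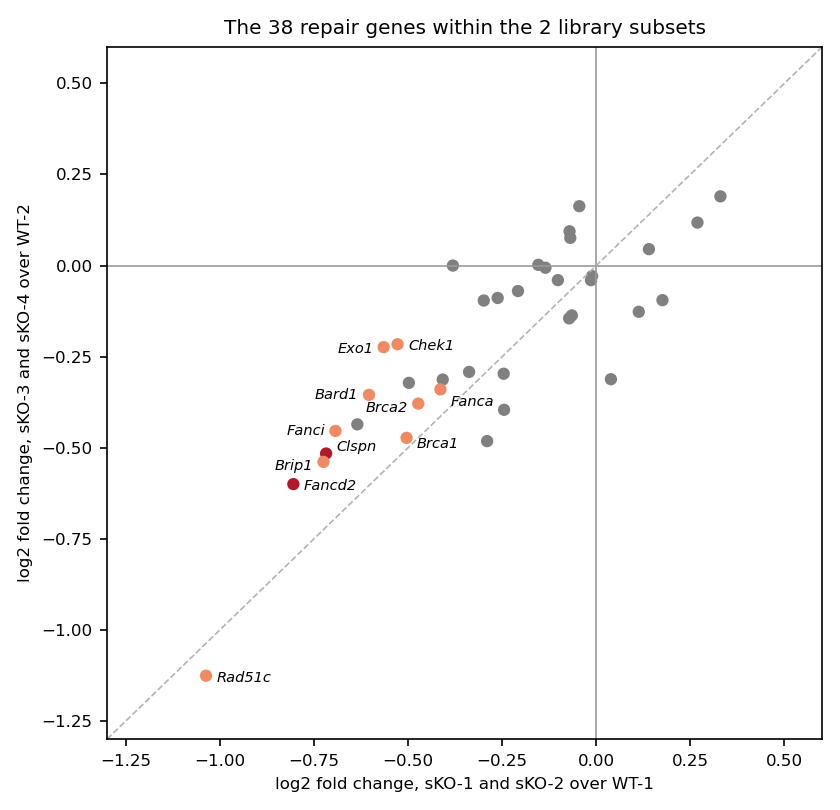
Log2 fold change (sKO minus WT) of each member within the first subset (WT-1, sKO-1 and sKO-2, horizontal axis) and within the second (WT-2, sKO-3 and sKO-4, vertical axis). Of the 38 members, 27 lie below 0 on both axes and 3 above 0 on both. Over all genes tested, 32.5% were below 0 within both subsets.

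The other genes of these pathways were read from lists of further pathway members. Beside the counts of these lists, edgeR called 2.30% of all genes lower, and 8.91% were lower at an unadjusted p under 0.05. Of 33 other homologous recombination genes tested, edgeR called 1 lower and none higher, and their log2 fold changes had a median of -0.15. DESeq2 called 4 lower and limma-voom 2, and 6 were lower at an unadjusted p under 0.05 in edgeR. The edgeR call was Rpa2, a subunit of the protein that coats single-stranded DNA, with 84.2 and 82.3 CPM in WT and 53.5 to 61.7 CPM in sKO (log2 fold change -0.54, SE 0.10, edgeR adjusted p = 0.035). Of 17 other Fanconi genes, edgeR called 1 lower and none higher, with a median of 0.01. DESeq2 called 2 lower and limma-voom 1, and 3 were lower at an unadjusted p under 0.05 in edgeR. The edgeR call was Ube2t, the ubiquitin-conjugating enzyme of the core complex that acts on FANCD2, with 18.6 and 18.7 CPM in WT and 9.85 to 12.1 CPM in sKO (log2 fold change -0.77, SE 0.14, edgeR adjusted p = 0.039). Both edgeR calls ended on leaving out any single library.

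Of 29 other checkpoint genes, edgeR, DESeq2 and limma-voom called none and 7 were lower at an unadjusted p under 0.05, with a median log2 fold change of -0.13; Trip12, a ubiquitin ligase, had a log2 fold change of -0.35 (adjusted p = 0.117). Of 16 end joining genes, edgeR and limma-voom called none, DESeq2 called 1 and 3 were lower at an unadjusted p under 0.05. Parp1, a sensor of strand breaks with the highest mean CPM of these, had 290.5 and 211.3 CPM in WT and 154.0 to 194.3 CPM in sKO (log2 fold change -0.53, SE 0.15, edgeR adjusted p = 0.142), and Lig3, a DNA ligase, had a log2 fold change of -0.10. Of the 28 proliferation markers, 2 were lower and none higher: Ccnb1, the mitotic cyclin, and Mcm7, a subunit of the replicative helicase, with log2 fold changes of -0.53 and -0.45 (edgeR adjusted p = 0.0276 and 0.0473). The call of Mcm7 ended on leaving out any single library and that of Ccnb1 on leaving out any but sKO-4. DESeq2 called 3 of the proliferation markers lower and limma-voom 1. At an unadjusted p under 0.05 in edgeR, 12 were lower, where the share over all genes was 8.91%. In 13 every sKO library lay below both WT libraries, where 13.3% of all genes did. The log2 fold change was below 0 for 27, where 44.7% of all genes were.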

How the data were processed

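The authors deposited 1 table of expected counts, which need not be whole, for 57170 gene identifiers in 6 libraries of testis RNA, captured on beads that bind poly(A) tails, per the labels' protocols. The submitters' processing notes name the tools fastp, STAR and RSEM and, as build, mm39; their roles and versions, the annotation and strand use were not given in the sources used here. As background, RSEM shares reads that match several genes among them. Symbols came from GENCODE M21 (GRCm38), which matched 51742 identifiers (90.51%). No coordinates are given for the counts; promoter coordinates are those of RefSeq on GRCm38.p6.

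Counts were rounded, filtered with edgeR's filterByExpr (minimum count 10) and scaled by TMM. The test was edgeR's two-sided quasi-likelihood test (edgeR 4.0.16, R 4.3.3) over the 17707 genes left, with Benjamini-Hochberg adjustment over all of them, a threshold of 0.05 and no covariate. SE is the size of the log2 fold change over the root of F. DESeq2 1.42.0 and limma-voom (limma 3.58.1), other scalings, filters and left-out libraries were alternatives. The test was checked on simulated counts. Same-group libraries differed by a chi-square per gene between 3.92 (sKO-3 against sKO-4) and 23.7 (sKO-1 against sKO-4), so none was pooled. Subsets of libraries were set from earlier results of these data. In the principal components (38.1% and 32.6% of variance on the first and second) they lay apart on the first.

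The members, lists and markers were chosen with earlier results of these data known. Full statistics were given to members past the threshold, those with an unadjusted p under 0.05 and the most abundant of each role. Of the cell type markers only Dazl, Ddx4, Amh and Cnn1 were named, and Mdm2 and Tex14 were named outside the lists. In the other pathway lists and the proliferation list, genes past the threshold or else the 2 most abundant were named. Exon lengths, neighbours and overlapping genes were read from GENCODE M21; 16 members overlap another annotated gene, 12 a tested one, and none one past the threshold. A gene that this rule would name is not reported here.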

Additional observations from a re-analysis of the deposited data

How the results depend on the processing

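The count of damage and recombination genes called lower (2 in the main test, of 408 genes lower and 22 higher in all) depended on the setting, while none was called higher in any. DESeq2 called 4 lower, of 646 lower and 80 higher over all genes; limma-voom called 2 and RLE scaling 3 (Brca1 being added, adjusted p = 0.0482). Upper-quartile scaling called 1, with Clspn at an adjusted p of 0.0565. Scaling to the Sertoli cell markers called 2, of 616 lower and 9 higher; it moved the median of all genes from 0.03 to -0.13 and that of the members from -0.20 to -0.38, so 36 members were below 0, against 29 under RLE and under upper-quartile scaling. Requiring an absolute log2 fold change of at least 1 left 0.

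Leaving out 1 library at a time left 0 members called lower in each case, and 1 (without WT-1) to 221 (without sKO-4) genes lower and 1 to 7 higher in all. The members' median then ran from -0.43 (without WT-2) to -0.10 (without WT-1). The term for the subset called 13 members lower, of 1531 genes lower and 880 higher. The subset of WT-1, sKO-1 and sKO-2 alone called 10, of 1028 lower and 312 higher; that of WT-2, sKO-3 and sKO-4 alone called 2, of which 1 (Clspn) was shared with the main test, of 276 lower and 126 higher. In the fits of a single subset alone, and in those without either WT library, the spread of the lone WT library was taken from the sKO group. The causes of these differences were not tested.

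The replicate block over the 4 libraries numbered 1 and 2 called 0 members and 269 genes lower, and the same 4 libraries without the block (chosen after seeing the data) called 0 members and 171 genes lower and 8 higher. Deviations from the group means correlated by 0.42 for number 1 and -0.44 for number 2. These values cannot tell whether the numbers mark pairs. The deviations of the 2 WT libraries are each other's opposite, so the 2 correlations are not independent. In addition, WT-1 and sKO-1 share a subset, while WT-2 and sKO-2 do not. With 2 WT libraries, the spread in that group rests on 1 difference.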
